A study of Mus musculus with 15 samples.

Results

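The Differentiation Stage, 7 days after cardiotoxin (CTX), was compared with Uninjected muscle in the tibialis anterior (TA), a fast muscle of the mouse shin. The comparison rests on 4 Differentiation Stage libraries and 3 Uninjected libraries, 7 of the 15 libraries of the series, and asks which transcripts stand above or below their resting level while new muscle fibers differentiate. All 7 came from male C57BL/6 mice that entered at 8 weeks of age, in groups of 5, and drank 8% heavy water, given to measure protein and DNA turnover. Mice of the Differentiation Stage had 50 µL of CTX, a snake venom toxin that kills muscle fibers, injected into the TA at 0.1 mg/mL in PBS with 0.2% meloxicam, a pain reliever. Uninjected muscle had no injection, and the study describes its uninjected controls as a group of mice of their own. No muscle given PBS and meloxicam alone was analysed here, so toxin, vehicle and needle cannot be told apart. RNA was taken from purified muscle fibers with the cells still attached to them, which the labels also call bulk tissue. The study removed CD45+ leukocytes from such fibers with magnetic beads before protein and DNA work, and its account of the RNA does not name that step. Of 56748 gene identifiers, 12983 reached 0.5 FPKM (fragment counts scaled for gene length and library size) in at least 3 of the 7 libraries and were tested.

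After a toxin kills muscle fibers, macrophages clear the debris and satellite cells, the stem cells of muscle, divide, become myoblasts and fuse into new fibers. New fibers first use embryonic and perinatal forms of the contractile proteins and replace them with adult forms as they mature. Matrix-producing cells lay down collagen around them in the same period.

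Depth was estimated from the FPKM values. Fragments summed over genes came to 1471339 to 6293109 in the Differentiation Stage and 2302641 to 4455116 in the Uninjected group. The FPKM of a single fragment gave library sizes of 1484031 to 8755781 and 1977015 to 3914847, so the depths are approximate. FPKM totals were 260942 to 430860 in the Differentiation Stage and 469399 to 492337 in the Uninjected group. Genes encoded in mitochondria held 12.5% to 21.6% of all FPKM in the Differentiation Stage and 24.6% to 38.0% in the Uninjected group. Acta1, skeletal actin, defines fast and slow fibers alike and was abundant in all 7 libraries, at 33058, 20100.1, 26594 and 17414 FPKM after CTX and 24982, 38083 and 29728 FPKM in Uninjected muscle. Differentiation Stage replicate 1, the shallowest library, stood apart from the other Differentiation Stage libraries on the side of the Uninjected group. It was the lowest of the 4 in 1304 of the 2209 genes called higher (59.0%) and the highest in 946 of the 1626 genes called lower (58.2%), against 36.0% and 33.1% of all genes tested. Without it more genes were called, 2689 higher and 1966 lower.

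Genes were compared on log2(FPKM + 0.5) with limma. Here a call, higher or lower, stands for a p under 0.05 after Benjamini-Hochberg adjustment over all genes tested. In the Differentiation Stage, 2209 genes were called higher (17.0% of those tested) and 1626 lower (12.5%), and the median log2 fold change of all genes tested was 0.06. These 2 shares are the background against which the counts of each gene list are read. A gene silent or nearly so in the Uninjected group was tested only because of its Differentiation Stage libraries, so it could not be called lower. Lists such as those of the cell cycle, macrophages and chemokines hold such genes, which bears on their counts. Most single genes described below were chosen for large called changes, and some for groups without overlap. That their groups lie apart follows largely from this choice and is no further support. The share of all genes tested whose groups lie apart is not given here. The split between higher and lower depended on how the libraries were scaled. With the same FPKM total given to every library, the median of all genes shifted to 0.53 and 3912 were higher and 570 lower. With the same total computed without mitochondrial genes (median 0.28) the counts were 2362 and 935, and after quantile normalization (median -0.09) 1710 were higher and 1962 lower. No gene called in the main analysis was called in the opposite direction in any of these. Student's t-test on FPKM with the same adjustment called 552 genes higher and 855 lower, and calls that it did not make are given with each group of genes. In bulk libraries such as these, fewer cells of a type and less RNA per cell cannot be told apart.

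**Figure D1:**
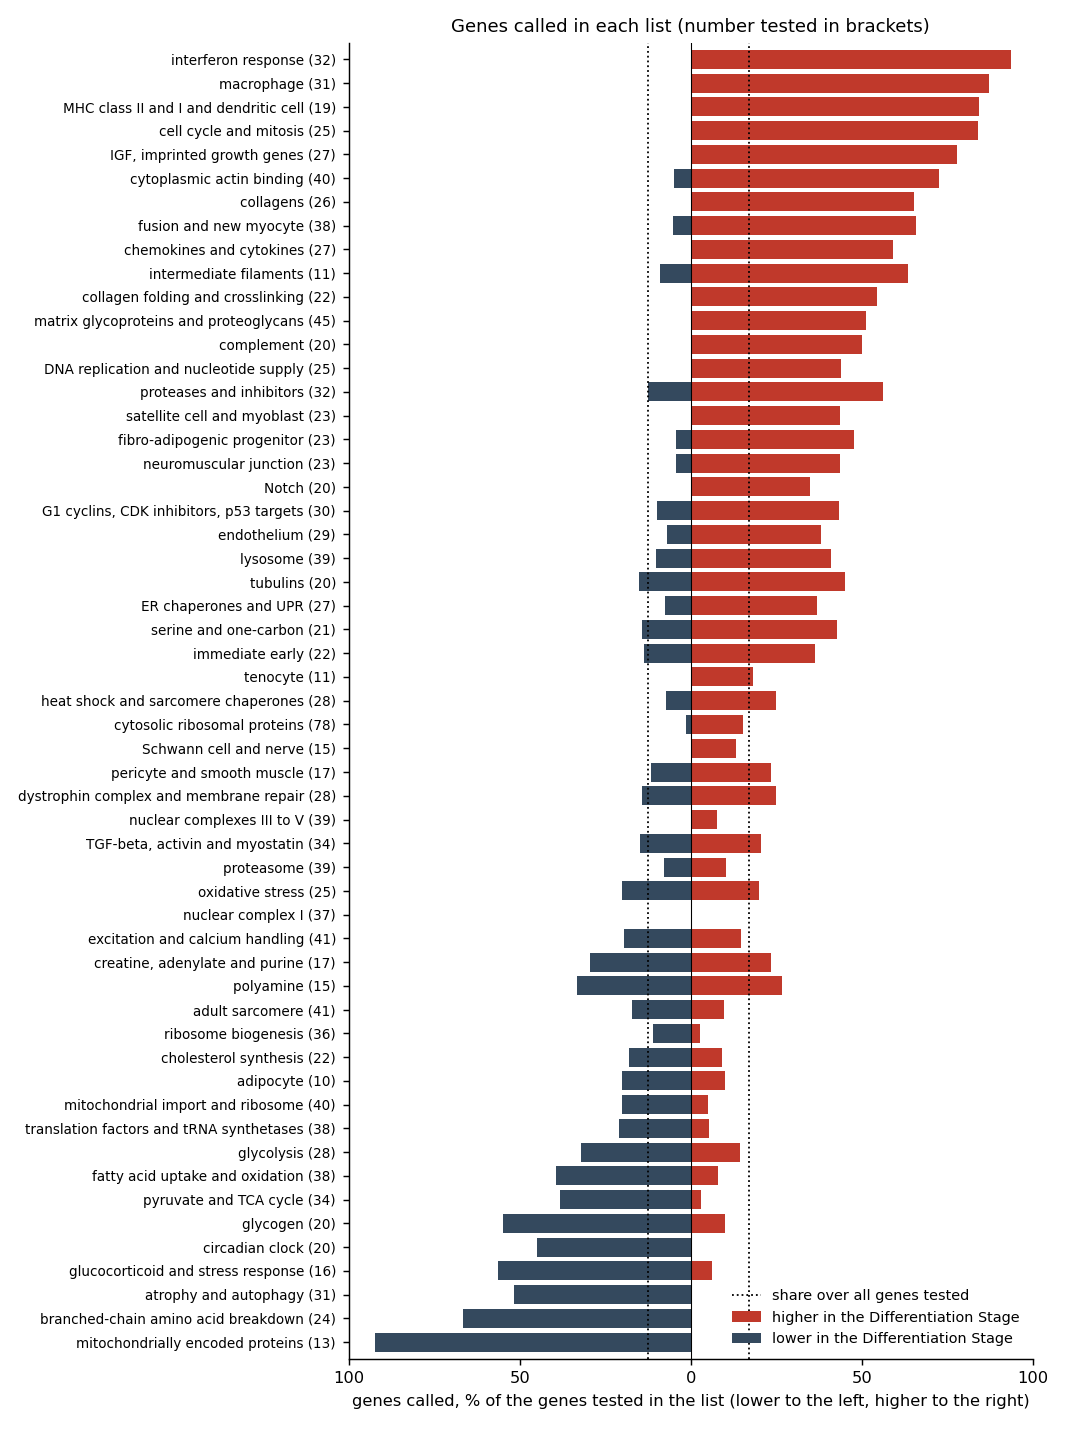
Share of the tested genes called higher (red, to the right) or lower (dark blue, to the left) in the Differentiation Stage relative to the Uninjected group, with the number tested in brackets and dotted lines at the shares over all genes tested, 17.0% and 12.5%, for each list with at least 10 tested genes. Interferon response, macrophage and MHC genes stand at the top and mitochondrially encoded, branched-chain amino acid and atrophy genes at the bottom, in order of the higher less the lower share.

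Genes of new muscle fibers were among the largest rises. Of 38 tested genes of fusion and of new myocytes (39 listed), 25 were higher and 2 lower (4 lower without Differentiation Stage replicate 1), against 17.0% and 12.5% of all genes tested, with a median log2 fold change of 1.87. Myh8, which encodes the perinatal myosin heavy chain, was at 22.8, 108, 96.6 and 187 FPKM in the 4 Differentiation Stage libraries and 1.08, 0.559 and 0.629 FPKM in the Uninjected libraries. Myh3, the embryonic myosin heavy chain gene, was at 6.79, 87.0, 60.1 and 197 FPKM after CTX and 0.951, 0 and 0.253 FPKM in Uninjected muscle. Both genes were lowest in Differentiation Stage replicate 1 and still higher there than in any Uninjected library. The log2 fold changes were 6.06 for Myh8 (standard error 0.61, adjusted p = 0.000881) and 6.01 for Myh3 (standard error 0.98, adjusted p = 0.00395). Mymk encodes myomaker, a membrane protein that myoblasts need in order to fuse. It was at 6.24, 29.4, 10.6 and 66.2 FPKM in the Differentiation Stage and was listed at 0 in all 3 Uninjected libraries (adjusted p = 0.00199). Sln, the gene of the calcium pump regulator sarcolipin, was at 36.8, 52.6, 50.2 and 74.4 FPKM in the Differentiation Stage and 2.18, 0 and 0.194 FPKM in the Uninjected group. Its groups were far apart and its exact permutation p was 0.0286, the smallest that 35 divisions of 4 and 3 libraries can give. Other genes described here had the same exact permutation p, such as H19, or a larger one, such as Col1a1 (0.0857) and Lyz2 (0.171). The calls of Myh8, Myh3 and Mymk were lost with Student's t-test on FPKM. That test called 6 higher and 1 lower in the list of fusion and new myocyte genes.

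Some of these genes varied much more among the injured muscles than others. Actc1, the cardiac actin gene that young skeletal fibers also use, was at 2583, 2338, 2309 and 2124 FPKM in the Differentiation Stage and 413, 315 and 105 FPKM in the Uninjected group (log2 fold change 3.28, standard error 0.44, adjusted p = 0.00215). The 4 injured muscles thus lay within a narrow band for Actc1. Myog, which encodes the factor that drives myoblasts into differentiation, was at 25.7, 65.1, 44.8 and 153 FPKM in the Differentiation Stage and 1.10, 2.71 and 5.13 FPKM in the Uninjected group. Replicate 4 held the highest Myog, Myh3, Myh8 and Mymk of the 4 Differentiation Stage libraries, and replicate 1 the lowest. In the list of satellite cell and myoblast genes, 10 of 23 tested (24 listed) were higher and 0 lower, with a median of 1.02, and 18 were higher with the same total in every library. Ncam1, an adhesion molecule of myoblasts and of muscle that lacks nerve contact, reached 4.74, 6.67, 3.90 and 8.48 FPKM in the Differentiation Stage against 0.237, 0.876 and 0.472 FPKM in the Uninjected group. Cxcr4, a chemokine receptor, was at 5.22, 12.7, 5.39 and 21.4 FPKM after CTX and 0.455, 1.12 and 1.27 FPKM in Uninjected muscle. Fgfr4, a growth factor receptor of myoblasts, was at 3.04, 5.48, 3.73 and 14.2 FPKM after CTX and 0.581, 1.00 and 0.288 FPKM in Uninjected muscle. All 3 passed the test, with log2 fold changes of 2.64, 2.83 and 2.47 (adjusted p = 0.00134, 0.00484 and 0.00719). The calls of Myog, Ncam1, Cxcr4 and Fgfr4 were lost with Student's t-test on FPKM. It called 2 higher and 0 lower in the list of satellite cell and myoblast genes.

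Muscle has paired genes for many proteins, an adult form and a form used early, in slow fibers or in most other cells. The share of the non-adult form in the summed FPKM of a pair needs no scaling between libraries and was computed for 22 such sets. In 18 of them every Differentiation Stage library lay above every Uninjected library. The sets were chosen with earlier results of these data known. How often the groups lie apart in other sets is not given here, so this count has no background to be read against. The groups overlapped for myosin light chain, troponin C, calsequestrin and phosphoglycerate mutase. Eef1a1, the elongation factor of most cells, made up 23.6, 50.0, 31.3 and 59.4% of Eef1a1 and its muscle form Eef1a2 in the Differentiation Stage and 8.54, 6.55 and 9.01% in the Uninjected group. The share of the ribosomal protein gene Rpl3 against its muscle form Rpl3l was 6.45, 32.8, 12.6 and 36.4% after CTX and 1.65, 2.45 and 2.48% in Uninjected muscle. The highest Uninjected library held less than the lowest Differentiation Stage library in both sets. Eno1 against the muscle enolase gene Eno3 stood at 1.40, 2.40, 1.59 and 2.88% in the Differentiation Stage and 0.347, 0.297 and 0.262% in the Uninjected group. For Cox8a against Cox8b, subunits of cytochrome oxidase, the share was 9.70, 25.2, 17.2 and 30.7% after CTX and 5.57, 3.28 and 4.48% in Uninjected muscle. For Slc25a5 against Slc25a4, ADP/ATP carriers, it was 2.45, 7.32, 4.87 and 9.36% after CTX and 1.01, 0.976 and 1.00% in Uninjected muscle. In every one of these pairs replicates 2 and 4 held the 2 highest shares of the Differentiation Stage.

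In several of these pairs the general form passed the test and the muscle form did not. Eef1a1 was at 429, 737, 484 and 859 FPKM in the Differentiation Stage and 95.7, 81.2 and 113 FPKM in the Uninjected group (log2 fold change 2.65, standard error 0.30, adjusted p = 0.00121). Eef1a2 was at 1388, 736, 1063 and 587 FPKM after CTX and 1024, 1158 and 1137 FPKM in Uninjected muscle and did not pass the test (log2 fold change -0.31, adjusted p = 0.525). The 2 Eef1a2 groups overlapped. Eno1 was at 74.2, 63.8, 63.5 and 71.2 FPKM in the Differentiation Stage and 15.8, 16.2 and 9.78 FPKM in the Uninjected group (log2 fold change 2.28, standard error 0.21, adjusted p = 0.000695), while Eno3 had a log2 fold change of -0.42 (adjusted p = 0.412). Cox8a rose (log2 fold change 1.51, adjusted p = 0.00363) and Cox8b had -0.88 (adjusted p = 0.113, and 0.0148 without Differentiation Stage replicate 1). Rpl3 and Rpl3l moved in opposite directions, with log2 fold changes of 2.04 and -1.28 (adjusted p = 0.00758 and 0.029), and the call of Rpl3l was lost without Differentiation Stage replicate 2 or 4 or without any 1 of the Uninjected replicates. Reads of Eef1a1 and Rpl3 can be shared with processed copies elsewhere in the genome, so their levels are uncertain. The calls of Eef1a1, Cox8a, Rpl3 and Rpl3l were lost with Student's t-test on FPKM.

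**Figure D2:**
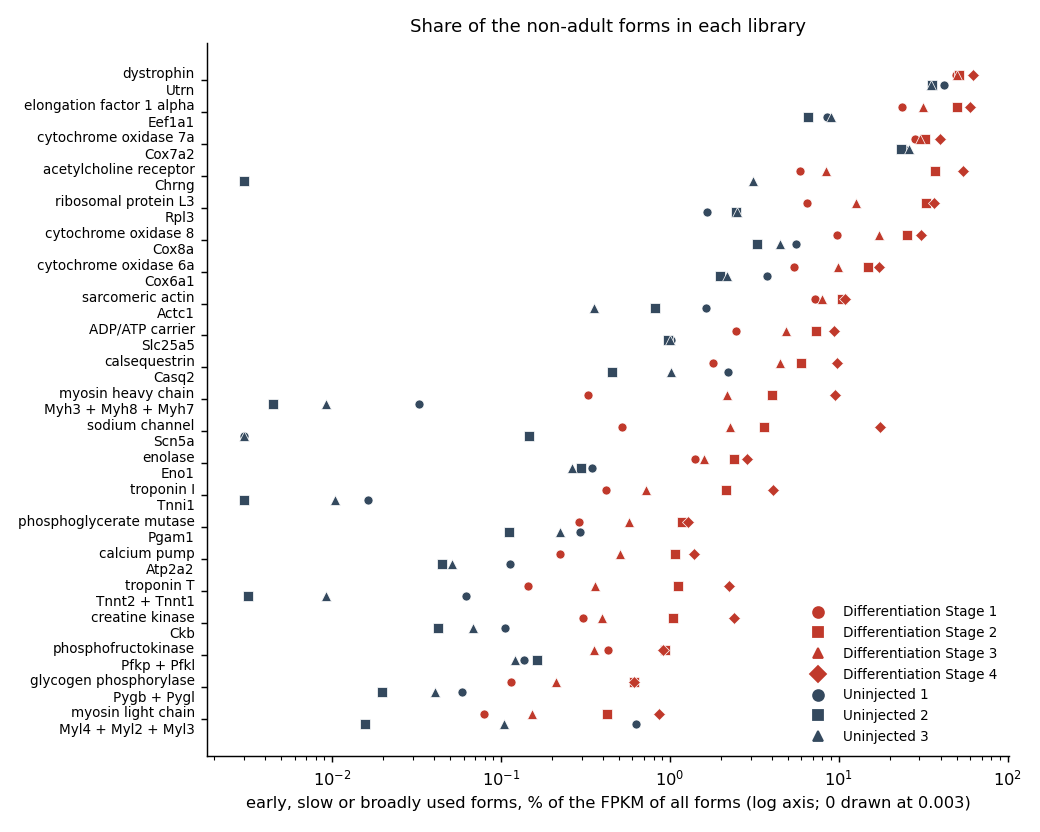
Share of the early, slow or broadly used forms in the summed FPKM of each set of related genes, in percent on a log axis, for the 4 Differentiation Stage libraries (red) and the 3 Uninjected libraries (dark blue), with a share of 0 drawn at the left edge and troponin C left out because its fast form was under 3 FPKM. The red points lie to the right of the blue points in 18 of the 21 sets and overlap with them for myosin light chain, calsequestrin and phosphoglycerate mutase.

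Genes of the adult contractile apparatus changed unevenly. Of 41 adult sarcomere genes, 4 were higher and 7 lower, near the background shares, with a median of -0.37. The counts were 14 higher and 6 lower with the same total in every library (median 0.21), and after quantile normalization 10 were higher and 7 lower (median 0.08), so the balance turned. The count of lower genes was 15 without Differentiation Stage replicate 1, and the count of higher genes was 2 without Differentiation Stage replicate 3 or Uninjected replicate 3. Tcap, Cmya5 and Mylk4 were called lower under every alternative tried. Tcap, which encodes telethonin, the cap of titin at the Z-disc, was at 1150.1, 565, 1031 and 810.0 FPKM in the Differentiation Stage and 3782, 3631 and 4046 FPKM in the Uninjected group (log2 fold change -2.15, standard error 0.31, adjusted p = 0.00258). Cmya5, the gene of myospryn, a protein of the costamere, was at 68.9, 43.2, 61.2 and 30.2 FPKM after CTX and 196, 204 and 204 FPKM in Uninjected muscle (log2 fold change -2.04, standard error 0.29, adjusted p = 0.00249). Both genes were close together among the 3 Uninjected libraries, and no Differentiation Stage library reached the lowest of them. The kinase genes Mylk2 and Mylk4 were lower too. Mylk2 phosphorylates the myosin light chain of fast fibers and was at 179, 117, 146 and 98.4 FPKM in the Differentiation Stage and 364, 674 and 750.0 FPKM in the Uninjected group. Mylk4, a related kinase, was at 24.4, 6.80, 11.9 and 6.53 FPKM after CTX and 220.4, 195 and 164 FPKM in Uninjected muscle (log2 fold change -4.10, standard error 0.42, adjusted p = 0.000905). Actn2, the alpha-actinin 2 gene, was among the 4 higher genes. It was at 590, 525, 857 and 587 FPKM in the Differentiation Stage and 350, 69.7 and 200 FPKM in the Uninjected group (log2 fold change 1.88, standard error 0.50, adjusted p = 0.023). Of the 18 alternatives, 3 lost its call. Ttn, the giant spring protein titin, averaged 45.9 ± 16.8 FPKM in the Differentiation Stage and 76.7 ± 8.74 FPKM in the Uninjected group and did not pass the test (adjusted p = 0.0683, and 0.015 without Differentiation Stage replicate 1). The calls of Mylk2 and Actn2 were lost with Student's t-test on FPKM. That test called 1 higher and 5 lower in the list of adult sarcomere genes.

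The machinery that couples the nerve impulse to calcium release changed as unevenly. Of 41 genes of excitation and calcium handling, 6 were higher and 8 lower, against 17.0% and 12.5% of all genes tested, with a median of -0.37. The split became 16 higher and 6 lower with the same total in every library (median 0.21), and after quantile normalization 11 were higher and 8 lower. The count of lower genes was 15 without Differentiation Stage replicate 1 and 5 on leaving out Differentiation Stage replicate 2, Uninjected replicate 2 or Uninjected replicate 3. Ryr1 encodes the calcium release channel of the sarcoplasmic reticulum and was at 101, 61.0, 76.0 and 45.4 FPKM in the Differentiation Stage and 237, 249.7 and 210.3 FPKM in the Uninjected group (log2 fold change -1.76, standard error 0.28, adjusted p = 0.00366). Cacna1s, the voltage sensor that opens Ryr1, was at 67.4, 55.9, 58.7 and 28.0 FPKM after CTX and 160.2, 153 and 128 FPKM in Uninjected muscle. Scn4a, the adult muscle sodium channel, was at 29.3, 18.5, 24.8 and 11.4 FPKM after CTX and 80.1, 79.0 and 57.2 FPKM in Uninjected muscle. All 3 genes were lower in each Differentiation Stage library than in each Uninjected library, with log2 fold changes of -1.54 for Cacna1s (adjusted p = 0.00825) and -1.82 for Scn4a (adjusted p = 0.00506). Slow and cardiac forms moved the other way. Casq2, the cardiac form of the calcium-binding protein calsequestrin, was at 56.4, 103, 107 and 139 FPKM in the Differentiation Stage and 28.9, 10.5 and 9.71 FPKM in the Uninjected group (log2 fold change 2.70, standard error 0.43, adjusted p = 0.0036). Atp2a2, the slow and cardiac calcium pump gene, was at 13.6, 37.9, 23.7 and 36.1 FPKM after CTX and 9.06, 4.66 and 5.21 FPKM in Uninjected muscle (log2 fold change 2.01, standard error 0.38, adjusted p = 0.0066). The calls of Casq2 and Atp2a2 were lost with Student's t-test on FPKM. It called 2 higher and 6 lower in the list of excitation and calcium handling genes.

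Genes of the neuromuscular junction were more often higher than lower. Of 23 tested genes of this list (24 listed), 10 were higher and 1 lower, with a median of 0.65. The acetylcholine receptor is the channel that opens when the nerve fires. Its subunit gene Chrna1 was at 16.6, 23.1, 17.4 and 34.7 FPKM in the Differentiation Stage and 2.53, 6.69 and 3.55 FPKM in the Uninjected group (log2 fold change 2.33, standard error 0.34, adjusted p = 0.00275). Chrnd, another subunit gene, was at 2.46, 6.11, 4.71 and 11.7 FPKM after CTX and 1.00, 0.769 and 0.855 FPKM in Uninjected muscle (log2 fold change 2.12, standard error 0.41, adjusted p = 0.0078). The fetal subunit gene Chrng made up 5.88, 37.3, 8.36 and 54.4% of the summed Chrng and Chrne in the Differentiation Stage and 0, 0 and 3.12% in the Uninjected group, so in replicate 4 it exceeded its adult counterpart. Chrna1 and Chrnd were highest in replicate 4 of the injured muscles. Nes, the gene of the intermediate filament nestin, which young fibers and the junction both contain, was at 28.0, 36.8, 36.5 and 41.9 FPKM in the Differentiation Stage and 8.08, 7.25 and 5.93 FPKM in the Uninjected group (log2 fold change 2.25, standard error 0.19, adjusted p = 0.000634). The 4 injured muscles were within a narrow range for Nes. Rapsn, which encodes the protein that clusters the receptor under the nerve, was the gene called lower, with 15.3, 12.9, 14.9 and 17.5 FPKM after CTX and 26.5, 26.1 and 22.1 FPKM in Uninjected muscle, but it missed the threshold with the same total in every library (log2 fold change -0.14, adjusted p = 0.637), without Uninjected replicate 1 (adjusted p = 0.0515) and without Uninjected replicate 2 (adjusted p = 0.0603). The calls of Chrna1 and Chrnd were lost with Student's t-test on FPKM. That test called 4 higher and 1 lower in the list of neuromuscular junction genes.

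Transcripts encoded in the mitochondrial genome were lower while most nuclear genes of the same respiratory complexes did not pass the test. Of the 13 mitochondrially encoded protein genes, 12 were lower and 0 higher, with a median of -1.72. The sum of the 13 was 84434, 29101, 50291 and 43644 FPKM in the Differentiation Stage and 164881, 110403 and 156243 FPKM in the Uninjected group. Every Differentiation Stage sum was under every Uninjected sum, with replicate 1 the nearest to them. mt-Nd2, a subunit of complex I, had 8276, 2475, 4289 and 3455 FPKM in the Differentiation Stage and 20854, 14129 and 20638 FPKM in the Uninjected group (log2 fold change -2.13, standard error 0.45, adjusted p = 0.01) and was called under every alternative tried. The count for the list was less steady. It was 1 without Uninjected replicate 1 or 3, 6 without Differentiation Stage replicate 2 or 4, 7 without Differentiation Stage replicate 3 and 7 after quantile normalization. These transcripts are a large part of each total, so their level and the scaling of all other genes are tied to each other. Student's t-test on FPKM called 0 higher and 4 lower in the list of mitochondrially encoded genes.

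In the list of 37 nuclear genes of complex I, 0 were called higher and 0 lower, with a median of -0.37. At an unadjusted limma p under 0.05 there were 4, and Student's t-test on FPKM with adjustment called 0. Without Differentiation Stage replicate 1, 7 were lower, and with the same total in every library 3 were higher and the median was 0.20. Of 39 nuclear genes of complexes III to V, 3 were higher and 0 lower, with 3 lower without Differentiation Stage replicate 1. The median was -0.19. The count of higher genes was 12 with the same total, and the median turned positive with the same total (0.39), with quantile normalization (0.08) and with the same total without mitochondrial genes (0.09). Atpif1, which encodes the inhibitor of the ATP synthase, was at 14.03, 11.5, 10.4 and 14.4 FPKM in the Differentiation Stage and 4.00, 2.46 and 3.19 FPKM in the Uninjected group (log2 fold change 1.82, standard error 0.20, adjusted p = 0.00104). The difference between mitochondrial and nuclear genes was not tested as such. Student's t-test on FPKM called 1 higher and 0 lower in the list of complexes III to V.

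**Figure D3:**
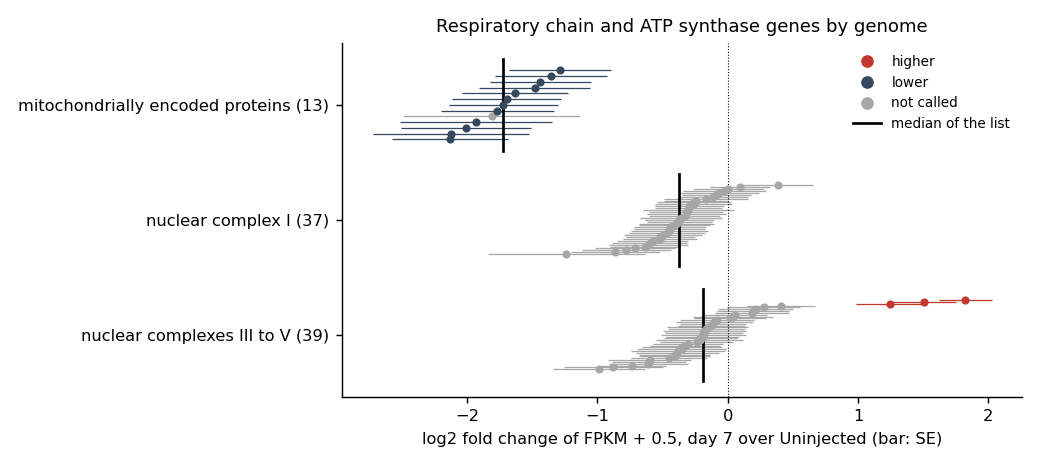
Log2 fold change of the Differentiation Stage over the Uninjected group for each gene of the respiratory complexes, with bars for the standard error and a vertical line at each median, in 3 rows for the 13 mitochondrially encoded genes, the 37 nuclear genes of complex I and the 39 nuclear genes of complexes III to V. Red points were called higher, dark blue points lower and grey points neither. The mitochondrially encoded genes lie around their median of -1.72, and the nuclear genes around -0.37 and -0.19.

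Genes that feed the mitochondrion were lower in part. Of 34 genes of pyruvate use and the TCA cycle, 1 was higher and 13 lower (median -0.72), and of 38 tested genes of fatty acid uptake and oxidation (39 listed), 3 were higher and 15 lower (median -0.67). These 2 counts moved with the libraries used. For the TCA list the count of lower genes was 5 to 8 without any 1 library other than Differentiation Stage replicates 1 and 3, and for fatty acids it was 2 without Uninjected replicate 3, 3 without Uninjected replicate 1, 6 without Differentiation Stage replicate 2 and 7 without Differentiation Stage replicate 4. With the same total in every library each count was 3. Me1, malic enzyme, which makes NADPH from malate, was at 24.0, 7.87, 10.9 and 4.96 FPKM in the Differentiation Stage and 48.8, 101 and 79.2 FPKM in the Uninjected group (log2 fold change -2.79, standard error 0.48, adjusted p = 0.00488). Pcx, pyruvate carboxylase, was at 8.79, 4.01, 4.21 and 3.495 FPKM after CTX and 17.1, 17.0 and 19.3 FPKM in Uninjected muscle (log2 fold change -1.79, standard error 0.28, adjusted p = 0.00357). Pdk2, the kinase that switches off pyruvate dehydrogenase, was at 119.7, 59.3, 103 and 70.2 FPKM after CTX and 209, 225 and 255 FPKM in Uninjected muscle (log2 fold change -1.43, standard error 0.28, adjusted p = 0.00776). For all 3 the groups were apart, and Differentiation Stage replicate 1 was the one nearest to the Uninjected group. Slc27a1, a fatty acid transporter gene, was at 3.00, 2.82, 2.56 and 3.56 FPKM in the Differentiation Stage and 21.5, 9.36 and 31.3 FPKM in the Uninjected group, with little spread after injury (log2 fold change -2.46, adjusted p = 0.00258). Ucp2, a carrier of the inner mitochondrial membrane that is abundant in macrophages, was higher, at 5.50, 13.9, 8.16 and 19.6 FPKM after CTX and 1.94, 1.38 and 1.64 FPKM in Uninjected muscle (log2 fold change 2.37, adjusted p = 0.00381). The calls of Slc27a1 and Ucp2 were lost with Student's t-test on FPKM. It called 0 higher and 5 lower in the list of pyruvate and the TCA cycle and 0 higher and 1 lower in the list of fatty acid uptake and oxidation.

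Breakdown of branched-chain amino acids held more lower genes than the background. Of 24 genes, 16 were lower and 0 higher (median -1.08), 10 were lower without Uninjected replicate 1 or 3, and 9 were lower with the same total in every library. Aldh6a1, which takes part in valine breakdown, was at 10.3, 6.54, 9.50 and 5.39 FPKM in the Differentiation Stage and 26.5, 25.5 and 34.0 FPKM in the Uninjected group (log2 fold change -1.82, standard error 0.24, adjusted p = 0.00209). Slc25a44, the carrier that brings these amino acids into mitochondria, was at 3.77, 4.66, 4.08 and 4.41 FPKM after CTX and 8.97, 13.1 and 12.2 FPKM in Uninjected muscle (log2 fold change -1.32, standard error 0.18, adjusted p = 0.00209). Klf15, a transcription factor that glucocorticoids induce and that drives amino acid breakdown, was at 7.002, 4.91, 5.30 and 4.46 FPKM after CTX and 14.3, 26.3 and 33.8 FPKM in Uninjected muscle (log2 fold change -2.03, standard error 0.29, adjusted p = 0.00248). Slc25a44 was nearly level among the 4 injured muscles. The call of Klf15 was lost with Student's t-test on FPKM. That test called 0 higher and 6 lower in the list of branched-chain amino acid breakdown.

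Genes of glycogen storage and of sugar uptake were lower in part. Of 20 tested glycogen genes (21 listed), 11 were lower and 2 higher (median -0.996), and 7 were lower without Uninjected replicate 2 or 3. Phka1, a regulatory subunit of the kinase that starts glycogen breakdown, was at 61.4, 30.9, 41.9 and 21.2 FPKM in the Differentiation Stage and 125, 179.9 and 146 FPKM in the Uninjected group (log2 fold change -2.03, standard error 0.34, adjusted p = 0.00455). Epm2a, which encodes laforin, a glycogen phosphatase, was at 15.2, 8.03, 12.1 and 5.69 FPKM after CTX and 39.7, 36.3 and 38.2 FPKM in Uninjected muscle (log2 fold change -1.93, standard error 0.30, adjusted p = 0.00336). Stbd1, a glycogen-binding protein gene, moved the other way, with 99.2, 61.0, 72.3 and 44.3 FPKM in the Differentiation Stage and 20, 33.7 and 19.6 FPKM in the Uninjected group (log2 fold change 1.47, standard error 0.31, adjusted p = 0.0103). Of 28 tested glycolysis genes (29 listed), 4 were higher and 9 lower (median -0.44, or 0.13 with the same total in every library), and 5 were lower without Uninjected replicate 3. Slc2a4, the insulin-regulated glucose transporter GLUT4, was at 82.3, 46.6, 92.4 and 47.8 FPKM after CTX and 235, 204 and 174 FPKM in Uninjected muscle (log2 fold change -1.65, standard error 0.30, adjusted p = 0.00567). Hk1, the hexokinase gene of most cells, was higher, at 6.16, 5.52, 5.91 and 6.91 FPKM after CTX and 1.74, 1.01 and 1.05 FPKM in Uninjected muscle (log2 fold change 1.93, standard error 0.19, adjusted p = 0.000861). Pfkfb3, which makes the strongest activator of phosphofructokinase, was at 2.85, 2.79, 1.56 and 1.76 FPKM in the Differentiation Stage and 22.8, 71.7 and 18.2 FPKM in the Uninjected group, where replicate 2 stood above the other two. Its log2 fold change was -3.56 (standard error 0.44). The calls of Stbd1 and Pfkfb3 were lost with Student's t-test on FPKM. It called 0 higher and 6 lower in the list of glycogen genes and 2 higher and 3 lower in the list of glycolysis.

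Creatine and polyamine genes moved in both directions. Gatm encodes the first enzyme of creatine synthesis and was at 18.9, 12.6, 14.3 and 14.7 FPKM in the Differentiation Stage and 0.959, 2.19 and 0.851 FPKM in the Uninjected group (log2 fold change 3.15, standard error 0.26, adjusted p = 0.000634). Gamt, the enzyme that completes creatine synthesis, was at 96.1, 51.7, 71.9 and 69.0 FPKM after CTX and 3.99, 24.5 and 4.60 FPKM in Uninjected muscle (log2 fold change 3.10, standard error 0.56, adjusted p = 0.00582), with Uninjected replicate 2 above the other Uninjected libraries and below all injured ones. Adssl1, which encodes the muscle enzyme that leads from IMP toward AMP, was lower, at 280.2, 132, 216 and 132 FPKM after CTX and 659, 757 and 725 FPKM in Uninjected muscle (log2 fold change -1.98, standard error 0.32, adjusted p = 0.0036). In the creatine, adenylate and purine list as a whole, 4 of 17 tested (18 listed) were higher and 5 lower, with a median of -0.52. Here 7 were higher and 3 lower with the same total in every library (median 0.05), and the count of lower genes was 2 or 3 without any 1 library other than Differentiation Stage replicates 1 and 3. Amd1, which makes the donor for polyamine synthesis, was at 35.7, 6.77, 11.4 and 6.33 FPKM in the Differentiation Stage and 168, 300.3 and 129.9 FPKM in the Uninjected group (log2 fold change -3.96, standard error 0.58, adjusted p = 0.00275). Smox, spermine oxidase, was at 34.1, 10.7, 11.6 and 10.6 FPKM after CTX and 72.9, 91.8 and 60.0 FPKM in Uninjected muscle (log2 fold change -2.30, standard error 0.41, adjusted p = 0.00534), with Differentiation Stage replicate 1 about 3 times as high as the other injured muscles and still below all Uninjected ones. Azin1, whose product shields the polyamine enzyme ornithine decarboxylase from breakdown, was higher, at 21.1, 15.2, 17.7 and 12.2 FPKM after CTX and 5.06, 4.77 and 4.00 FPKM in Uninjected muscle (log2 fold change 1.72, standard error 0.21, adjusted p = 0.00148). The call of Amd1 was lost with Student's t-test on FPKM. That test called 2 higher and 1 lower in the list of creatine, adenylate and purine genes.

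Whether ribosomal protein genes were called depended on the scaling. Of 78 tested genes (79 listed), 12 were higher and 1 lower (median 0.47), against 17.0% and 12.5% of all genes tested. With the same total in every library 68 were higher, with that total computed without mitochondrial genes 41, and after quantile normalization 39. The count was 3 to 6 without any 1 of Differentiation Stage replicates 2, 3 and 4 and Uninjected replicates 1 and 2. Rpl41, which encodes the smallest ribosomal protein, was at 240.0, 183, 197 and 139.7 FPKM in the Differentiation Stage and 32.7, 68.4 and 57.5 FPKM in the Uninjected group (log2 fold change 1.87, standard error 0.30, adjusted p = 0.00379) and was called under every alternative tried. Rplp1, the most abundant gene of the list, was at 1079, 829, 802 and 1117 FPKM after CTX and 570.4, 890.0 and 717 FPKM in Uninjected muscle, and the groups overlapped (adjusted p = 0.291, and 0.0124 with the same total). Ribosomal protein genes have many processed copies that can share their reads, so their levels are uncertain. Of 38 translation factor and tRNA synthetase genes, 2 were higher and 8 lower (median -0.30). That became 6 higher and 5 lower with the same total (median 0.25). The count was 14 lower without Differentiation Stage replicate 1, 5 without Differentiation Stage replicate 2 and 4 without Uninjected replicate 3. Eif4ebp2, a brake on cap-dependent translation, was at 23.8, 20.2, 21.4 and 16.9 FPKM in the Differentiation Stage and 58.5, 75.6 and 67.4 FPKM in the Uninjected group (log2 fold change -1.69, standard error 0.19, adjusted p = 0.00107). Mars1, methionyl-tRNA synthetase, was at 9.25, 9.78, 9.81 and 8.98 FPKM after CTX and 24.8, 25.3 and 31.1 FPKM in Uninjected muscle, with the 4 injured muscles nearly equal (log2 fold change -1.46, standard error 0.15, adjusted p = 0.000952). Student's t-test on FPKM called 1 higher and 0 lower in the list of ribosomal proteins and 0 higher and 5 lower in the list of translation factors and tRNA synthetases.

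The lists of muscle wasting, circadian clock and glucocorticoid response held more lower genes than the background. Of 31 atrophy and autophagy genes, 16 were lower and 0 higher (median -0.72). Fbxo32 encodes atrogin-1, a ubiquitin ligase subunit that rises in wasting muscle. It was at 6.76, 9.09, 9.48 and 5.66 FPKM in the Differentiation Stage and 42.4, 45.8 and 131 FPKM in the Uninjected group, where replicate 3 was far above the other two (log2 fold change -2.98, standard error 0.39, adjusted p = 0.002). Asb2, another ubiquitin ligase subunit, was at 85.2, 48.9, 65.8 and 45.5 FPKM after CTX and 246, 413 and 379 FPKM in Uninjected muscle (log2 fold change -2.50, standard error 0.29, adjusted p = 0.00138). Foxo4, a transcription factor of the family that drives atrophy genes, was at 22.0, 13.7, 17.2 and 14.1 FPKM after CTX and 58.5, 66.8 and 62.9 FPKM in Uninjected muscle (log2 fold change -1.90, standard error 0.20, adjusted p = 0.00102). Asb2 and Foxo4 were called under every alternative tried. Of 20 clock genes, 9 were lower and 0 higher (median -0.78). Nr1d1 and Nr1d2, which encode the clock repressors REV-ERB alpha and beta, had log2 fold changes of -1.32 and -1.17 (adjusted p = 0.0109 and 0.0038). The hour of tissue collection is not given in the sources used here, so its part in the levels of clock genes was not tested. The calls of Fbxo32 and Nr1d1 were lost with Student's t-test on FPKM. That test called 0 higher and 8 lower in the list of atrophy and autophagy genes and 0 higher and 5 lower in the list of clock genes.

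In the list of glucocorticoid and stress response genes, 9 of 16 tested (17 listed) were lower and 1 higher (median -1.12), and 3 were lower with the same total in every library. Ddit4, an inhibitor of the growth kinase mTOR that glucocorticoids induce, was at 34.2, 31.1, 24.6 and 24.1 FPKM in the Differentiation Stage and 82.5, 197 and 131 FPKM in the Uninjected group (log2 fold change -2.17, standard error 0.30, adjusted p = 0.00229). Arrdc2, an arrestin-related gene, was at 3.54, 6.57, 7.70 and 8.48 FPKM after CTX and 31.8, 75.9 and 80.1 FPKM in Uninjected muscle (log2 fold change -3.11, standard error 0.38, adjusted p = 0.00168). In the list of TGF-beta, activin and myostatin genes, 7 of 34 tested (36 listed) were higher and 5 lower, near the background shares, with a median of 0.53. Scaled to the same total, 12 were higher and 2 lower. The count of higher genes was 13 without Differentiation Stage replicate 1 and 4 without Uninjected replicate 2, and that of lower genes was 3 without any 1 library other than Differentiation Stage replicate 1 and Uninjected replicate 1. Fstl1, among the 7 higher genes, had a log2 fold change of 3.08 (adjusted p = 0.00828), and 1 of the 18 alternatives lost its call. Of the 5 lower genes, Mstn and Acvr1b are described here. Myostatin, a secreted brake on muscle growth encoded by Mstn, was at 2.99, 3.38, 2.70 and 1.07 FPKM in the Differentiation Stage and 11.9, 25.1 and 25.6 FPKM in the Uninjected group (log2 fold change -2.81, standard error 0.37, adjusted p = 0.00209). Mstn was lowest in replicate 4 of the injured muscles. Acvr1b, a receptor of activin and myostatin, was at 10.1, 7.81, 7.84 and 6.49 FPKM after CTX and 17.9, 30.7 and 22.3 FPKM in Uninjected muscle (log2 fold change -1.48, standard error 0.22, adjusted p = 0.00302). Ddit4, Arrdc2, Mstn and Acvr1b, chosen for their large called changes, were lower in every Differentiation Stage library than in every Uninjected library. The calls of Ddit4 and Arrdc2 were lost with Student's t-test on FPKM. It called 0 higher and 2 lower in the list of glucocorticoid and stress response genes and 1 higher and 3 lower in the list of TGF-beta, activin and myostatin.

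Most genes of the list of insulin-like growth factor (IGF) signalling and imprinted growth genes, in which 1 parental copy is silenced, were higher. Of 27 tested genes of the IGF and imprinted list (29 listed), 21 were higher and 0 lower, with a median of 2.10, and 16 to 21 were higher when any 1 library was left out. H19 (ENSMUSG00000000031), a non-coding RNA of the fetal growth locus it shares with Igf2, lies on chromosome 7 from 142575529 to 142578143 (GRCm38). It was at 1873, 1658, 1673 and 1456 FPKM in the Differentiation Stage and 151, 128 and 153 FPKM in the Uninjected group (log2 fold change 3.53, standard error 0.23, adjusted p = 0.000185). The spread within each group was small against the gap between them. Maged2 (ENSMUSG00000025268), an X-linked gene outside this list and among the largest rises, lies on chromosome X from 150806370 to 150814345. It was at 71.6, 102, 112 and 117 FPKM in the Differentiation Stage and 2.16, 2.81 and 2.21 FPKM in the Uninjected group (log2 fold change 5.11, standard error 0.21, adjusted p = 4.19e-05). Mest (ENSMUSG00000051855), an imprinted gene of fetal mesoderm on chromosome 6 from 30723547 to 30748465, was at 13.7, 74.1, 24.6 and 67.5 FPKM after CTX and 0.73, 0.128 and 1.23 FPKM in Uninjected muscle (log2 fold change 5.06, standard error 0.61, adjusted p = 0.00157). Meg3 and Dlk1 are neighbours in an imprinted region of chromosome 12. Meg3 was at 6.15, 20.8, 16.7 and 41.5 FPKM after CTX and 0.323, 0.902 and 0.429 FPKM in Uninjected muscle (log2 fold change 4.13, adjusted p = 0.00202). Dlk1 was at 1.79, 31.4, 24.2 and 33.3 FPKM after CTX and 0.145, 0.0894 and 0.0903 FPKM in Uninjected muscle (log2 fold change 4.69, adjusted p = 0.00621). Dlk1 in Differentiation Stage replicate 1 was far below the other injured muscles, and Meg3 was lowest there too. Plagl1, the imprinted zinc finger gene Zac1, had a log2 fold change of 3.90 (adjusted p = 0.00316). Cdkn1c, which encodes the cell cycle inhibitor p57, was at 21.2, 81.1, 65.8 and 152 FPKM in the Differentiation Stage and 10.7, 15.6 and 12.03 FPKM in the Uninjected group (log2 fold change 2.31, standard error 0.56, adjusted p = 0.0179), and its adjusted p was 0.0567 without Uninjected replicate 1 and 0.0590 without Uninjected replicate 3. The calls of Mest, Meg3, Dlk1, Plagl1 and Cdkn1c were lost with Student's t-test on FPKM. That test called 6 higher and 0 lower in the list of IGF and imprinted genes.

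Genes of dividing cells were higher. Of 25 tested genes of the cell cycle and mitosis (32 listed), 21 were higher and 0 lower, with a median of 1.68. Members silent in Uninjected muscle, such as Mki67, were tested only through the Differentiation Stage libraries and could not be called lower. Many such genes carry the cell cycle homology region, TTTGAA, near their start site, where the DREAM complex holds them off in resting cells. In RefSeq start-site windows of GRCm38.p6, from 250 bases before to 50 after the start, this motif occurred on either strand in 20.2% of the 27025 genes with a window and in 13.7% of the tested ones. It occurred in 23 of the 28 genes of the mitosis list with a window and in 14 of the 18 of them called higher. The stretches around it in 2 genes described here are shown with the first match in capitals and any further match within the stretch in lower case. Each window held 2 matches, and the second match of Ccnb2 lies outside the stretch shown. The first match begins 116 bases before the start in Mki67 and 167 in Ccnb2. Each stretch is written along the strand of its gene, which is the minus strand for both, from chr7:135716450-135716535 and chr9:70421676-70421761.
Mki67: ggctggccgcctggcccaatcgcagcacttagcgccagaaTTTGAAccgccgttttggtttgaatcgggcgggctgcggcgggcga
Ccnb2: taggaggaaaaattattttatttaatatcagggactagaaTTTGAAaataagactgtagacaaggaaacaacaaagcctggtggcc
A match is a description of the letters and not a shown binding site. Another motif searched, the E-box CAGCTG, was set against the list of fusion and new myocyte genes. It occurred in 18.3% of the tested genes with a window, in 9 of the 31 list members with a window and in 5 of the 20 of them called higher.

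Ccnb2 (ENSMUSG00000032218), the cyclin B2 gene on chromosome 9 from 70407692 to 70421547, was at 3.52, 5.45, 3.18 and 9.77 FPKM in the Differentiation Stage and 0, 0.33 and 0.334 FPKM in the Uninjected group (log2 fold change 2.97, standard error 0.38, adjusted p = 0.00181). Mki67, the proliferation marker Ki-67, was at 1.00, 2.51, 2.06 and 3.47 FPKM in the Differentiation Stage and was listed at 0 in all 3 Uninjected libraries (adjusted p = 0.00231). Both were low in absolute level, and replicate 4 was the highest for both. Of 25 tested replication genes (35 listed), 11 were higher and 0 lower (median 0.66), with 5 to 7 higher without any 1 library other than Differentiation Stage replicate 1 and 7 after quantile normalization. Of 30 genes of G1 cyclins, of inhibitors that hold cells out of the cycle and of p53 targets, 13 were higher and 3 lower (median 0.77). The count of higher genes was 5 to 8 on leaving out Differentiation Stage replicate 2 or 4 or Uninjected replicate 1 or 3. Trp53, the p53 gene, was at 6.16, 8.70, 7.27 and 8.11 FPKM in the Differentiation Stage and 1.83, 2.50 and 2.90 FPKM in the Uninjected group (log2 fold change 1.48, standard error 0.19, adjusted p = 0.002). Rbl2, which encodes p130, the pocket protein of the DREAM complex, was 1 of the 3 lower genes, at 1.605, 2.45, 2.28 and 2.25 FPKM after CTX and 6.42, 7.16 and 8.85 FPKM in Uninjected muscle (log2 fold change -1.59, standard error 0.19, adjusted p = 0.00143). Gadd45g, a growth arrest gene, was lower too, at 60.9, 33.2, 40.04 and 34.3 FPKM after CTX and 162, 268 and 113 FPKM in Uninjected muscle (log2 fold change -2.05, standard error 0.33, adjusted p = 0.00386). For Trp53 and Rbl2 the groups lay apart with narrow spread in each. The calls of Ccnb2, Mki67 and Gadd45g were lost with Student's t-test on FPKM. It called 2 higher and 0 lower in the list of cell cycle and mitosis genes, 1 higher and 1 lower in the list of replication genes and 5 higher and 1 lower in the list of G1 cyclins, inhibitors and p53 targets.

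Cytoskeletal genes outside the sarcomere rose in large number. Of 40 tested genes of cytoplasmic actin and its binding proteins (42 listed), 29 were higher and 2 lower, with a median of 1.31. Tmsb10, thymosin beta 10, which binds actin monomers, was at 67.1, 106, 86.8 and 225 FPKM in the Differentiation Stage and 7.09, 7.53 and 4.40 FPKM in the Uninjected group (log2 fold change 4.03, standard error 0.40, adjusted p = 0.000838). Cfl1, the filament-severing protein cofilin of non-muscle cells, was at 44.3, 61.0, 48.0 and 92.9 FPKM after CTX and 12.3, 8.18 and 9.79 FPKM in Uninjected muscle (log2 fold change 2.51, standard error 0.28, adjusted p = 0.00107). Of 11 tested intermediate filament genes (17 listed), 7 were higher and 1 lower (median 1.53). Krt18 (ENSMUSG00000023043), a keratin of simple epithelia that pairs with Krt8, lies on chromosome 15 from 102028180 to 102032027. It was at 25.8, 20.7, 17.9 and 24.0 FPKM in the Differentiation Stage and 0, 0 and 0.356 FPKM in the Uninjected group (log2 fold change 5.23, standard error 0.24, adjusted p = 4.72e-05). Krt8 was at 9.64, 10.7, 7.73 and 4.45 FPKM after CTX and 0.21, 0 and 0 FPKM in Uninjected muscle (log2 fold change 3.87, standard error 0.30, adjusted p = 0.000491). Unlike most rises, Krt18 was not lowest in Differentiation Stage replicate 1. Vim, vimentin, the filament of mesenchymal cells and myoblasts, was at 94.9, 147, 90.4 and 246 FPKM in the Differentiation Stage and 15.2, 16.3 and 12.5 FPKM in the Uninjected group (log2 fold change 3.14, standard error 0.35, adjusted p = 0.00106). The calls of Tmsb10, Cfl1 and Vim were lost with Student's t-test on FPKM. That test called 4 higher and 0 lower in the list of cytoplasmic actin and its binding proteins and 3 higher and 1 lower in the list of intermediate filaments.

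Among the tubulins, the subunits of microtubules, 9 of 20 were higher and 3 lower (median 0.93), and different genes went different ways. Tuba1a and Tubb6 had log2 fold changes of 2.55 and 2.44 (adjusted p = 0.00491 and 0.00244). Tuba1a was at 23.5, 67.1, 35.1 and 97.7 FPKM in the Differentiation Stage and 8.67, 7.29 and 7.65 FPKM in the Uninjected group. Tuba4a, an alpha tubulin of adult muscle, was at 97.4, 27.4, 52.5 and 30.2 FPKM after CTX and 195, 232 and 191 FPKM in Uninjected muscle (log2 fold change -2.16, standard error 0.42, adjusted p = 0.00719). The 2 alpha tubulin genes thus exchanged rank in replicates 2 and 4, where Tuba1a exceeded Tuba4a in FPKM, which is a level per length of gene. Tubulin genes resemble each other, so reads may be shared between them. The calls of Tuba1a and Tubb6 were lost with Student's t-test on FPKM. It called 3 higher and 1 lower in the list of tubulins.

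Of the 58 lists, that of interferon-stimulated genes had the highest share called higher in the main analysis. Of 32 genes, 30 were higher and 0 lower, with a median of 1.97, and 21 to 28 were higher when any 1 library was left out. The rank did not hold in every setting. After quantile normalization 26 of the 32 were higher, against 16 of 19 tested MHC and dendritic cell genes. With a block for the replicate number, 23 of the 32 were higher, against 16 of those 19. Interferon, released by cells that sense foreign or stray nucleic acid, switches these genes on through the factor ISGF3, which binds the interferon-stimulated response element. The form searched here, with 2 copies of GAAA spaced by 2 bases of any kind, on either strand, occurred in 3.99% of the 27025 genes with a start-site window and 3.63% of the tested ones. It occurred in 14 of the 25 list members with a window, 13 of them among the 23 called higher. The stretches around it in 3 genes described here, each on the minus strand and written along it, come from chr4:156200847-156200936, chr5:120907496-120907585 and chr7:141010695-141010782 of GRCm38.p6, with the first match in capitals and any further match left in lower case.
Isg15: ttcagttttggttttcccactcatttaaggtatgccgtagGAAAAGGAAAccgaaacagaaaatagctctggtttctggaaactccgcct
Oas1a: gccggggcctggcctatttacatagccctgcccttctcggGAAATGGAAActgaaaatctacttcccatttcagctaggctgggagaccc
Ifitm3: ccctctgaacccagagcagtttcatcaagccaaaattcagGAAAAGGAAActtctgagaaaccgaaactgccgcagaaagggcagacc
Nothing about binding in these muscles was measured.

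Isg15 (ENSMUSG00000035692), a ubiquitin-like protein gene on chromosome 4 from 156199424 to 156200818, was at 12.5, 26.2, 42.3 and 29.5 FPKM in the Differentiation Stage and 1.17, 4.32 and 2.18 FPKM in the Uninjected group (log2 fold change 3.21, standard error 0.45, adjusted p = 0.00246). Oas1a, whose product senses double-stranded RNA, was at 3.22, 5.82, 8.03 and 5.73 FPKM after CTX and 0, 0.268 and 0.136 FPKM in Uninjected muscle (log2 fold change 3.25, standard error 0.30, adjusted p = 0.000695). Ifitm3, an antiviral membrane protein gene, was at 146, 168, 246 and 191 FPKM after CTX and 40.04, 27.6 and 41.1 FPKM in Uninjected muscle (log2 fold change 2.35, standard error 0.25, adjusted p = 0.000972). Replicate 3 was the highest of the injured muscles for all 3 genes. It was the highest for Irf7, the factor that amplifies the response, as well, with 12.8, 17.8, 26.3 and 10.7 FPKM in the Differentiation Stage and 1.09, 0.402 and 2.30 FPKM in the Uninjected group (log2 fold change 3.37, standard error 0.42, adjusted p = 0.00168). Ifi27l2a was at 21.8, 29.6, 47.0 and 30.5 FPKM after CTX and 2.66, 2.18 and 3.31 FPKM in Uninjected muscle (log2 fold change 3.31, standard error 0.26, adjusted p = 0.000491). The summed level of the list was 409, 603, 728 and 519 FPKM in the Differentiation Stage and 114, 90.2 and 133 FPKM in the Uninjected group, so the lowest injured muscle, replicate 1, was still about 3 times the highest Uninjected library. Psmb8 and Psmb10, which interferon gamma induces as parts of the immunoproteasome, had log2 fold changes of 1.91 and 1.74 (adjusted p = 0.00619 and 0.000842). The calls of Isg15, Irf7 and Psmb8 were lost with Student's t-test on FPKM. That test called 8 higher and 0 lower in the list of interferon-stimulated genes.

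Most antigen presentation genes were higher too. Of 19 tested MHC and dendritic cell genes (22 listed), 16 were higher and 0 lower (median 1.98). B2m, the invariant chain of MHC class I on nearly all cells, was at 218, 400.3, 319 and 313 FPKM in the Differentiation Stage and 79.4, 51.8 and 112 FPKM in the Uninjected group (log2 fold change 1.98, standard error 0.32, adjusted p = 0.00376). Cd74, the invariant chain of MHC class II, which few cell types carry, was at 42.5, 361, 139 and 244 FPKM after CTX and 8.33, 6.93 and 4.26 FPKM in Uninjected muscle (log2 fold change 4.48, standard error 0.65, adjusted p = 0.0027). H2-Aa, a class II chain, was at 11.2, 69.7, 29.9 and 47.8 FPKM after CTX and 1.41, 1.33 and 0.874 FPKM in Uninjected muscle (log2 fold change 4.29, standard error 0.53, adjusted p = 0.00171). The 2 class II genes varied over 6-fold among the injured muscles, highest in replicate 2 and lowest in replicate 1, and B2m less than 2-fold. MHC class I genes resemble each other and may share reads. The calls of Cd74 and H2-Aa were lost with Student's t-test on FPKM. It called 2 higher and 0 lower in the list of MHC and dendritic cell genes.

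Macrophage genes rose by more than any other list here in the median. Of 31 tested (38 listed), 27 were higher and 0 lower, with a median of 3.14, and 19 to 30 were higher when any 1 library was left out. Lyz2, lysozyme of macrophages and granulocytes, was at 35.8, 319.8, 112 and 529 FPKM in the Differentiation Stage and 5.63, 9.22 and 3.30 FPKM in the Uninjected group (log2 fold change 4.74, standard error 0.83, adjusted p = 0.00539). C1qb, a complement chain that macrophages make, was at 8.05, 123, 49.4 and 150.4 FPKM after CTX and 1.51, 1.86 and 0.47 FPKM in Uninjected muscle (log2 fold change 5.00, standard error 0.91, adjusted p = 0.00589). Ctss, the lysosomal protease cathepsin S, was at 8.93, 105, 41.4 and 156 FPKM after CTX and 0.606, 0.372 and 0.188 FPKM in Uninjected muscle (log2 fold change 5.86). In all 3 the order of the injured muscles was replicate 4, 2, 3 and 1, and replicate 1 stood nearer to the Uninjected libraries than to replicate 4 on the FPKM scale. Adgre1, the defining macrophage marker F4/80, was low in level, at 1.66, 7.48, 3.44 and 5.39 FPKM in the Differentiation Stage and 0.635, 0 and 0 FPKM in the Uninjected group (log2 fold change 2.77, standard error 0.48, adjusted p = 0.00494). Cd68, another defining marker, was at 3.22, 26.3, 7.75 and 42.6 FPKM after CTX and 0, 1.61 and 0 FPKM in Uninjected muscle (log2 fold change 4.09, standard error 0.87, adjusted p = 0.0109). Csf1r, the receptor through which macrophages are kept alive, was at 0.467, 10.01, 3.95 and 12.2 FPKM after CTX and 0.499, 0.526 and 0.177 FPKM in Uninjected muscle (log2 fold change 2.47, standard error 0.80, adjusted p = 0.0475). Its groups overlapped through Differentiation Stage replicate 1, and its call was lost without any 1 of the other 6 libraries (adjusted p = 0.0857 to 0.132). In all, 13 of the 17 alternatives that tested Csf1r lost its call. Ptprc, which encodes the CD45 of all leukocytes, was at 0.258, 1.68, 0.56 and 1.25 FPKM in the Differentiation Stage and 0.0225, 0 and 0.0279 FPKM in the Uninjected group (log2 fold change 1.36, standard error 0.39, adjusted p = 0.0308). The call of Ptprc was lost without any 1 Uninjected library (adjusted p = 0.0708 to 0.0831) and after quantile normalization (adjusted p = 0.105), and the gene fell under the floor for testing without Differentiation Stage replicate 2, 3 or 4. Tyrobp, an adaptor of myeloid receptors, was at 7.07, 43.7, 15.1 and 63.5 FPKM after CTX and 0, 0.758 and 0 FPKM in Uninjected muscle (log2 fold change 5.14, adjusted p = 0.0024). The calls of Lyz2, C1qb, Ctss, Adgre1, Cd68, Csf1r, Ptprc and Tyrobp were lost with Student's t-test on FPKM. That test called 0 higher and 0 lower in the list of macrophage genes.

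Few genes of other leukocytes reached the floor for testing. None of the 16 neutrophil genes reached the floor of 0.5 FPKM in 3 libraries, so none was tested. Of 27 T, NK and B cell genes, 6 were tested and 1 was higher, with 4 higher without Differentiation Stage replicate 1. The T, NK and B cell genes summed to 11.3, 28.4, 13.1 and 15.9 FPKM in the Differentiation Stage and 11.9, 19.5 and 2.64 FPKM in the Uninjected group, with overlapping groups. The neutrophil genes summed to 3.34, 3.80, 1.78 and 3.25 FPKM in the Differentiation Stage and 0.587, 0.964 and 3.07 FPKM in the Uninjected group. Of 27 tested chemokine and cytokine genes (40 listed), 16 were higher and 0 lower (median 1.28). Ccl8, a chemokine for monocytes, was at 5.27, 19.7, 15.7 and 4.06 FPKM in the Differentiation Stage and was listed at 0 in each Uninjected muscle (adjusted p = 0.00147). Cxcl9, which interferon gamma induces, was at 4.25, 12.3, 9.17 and 2.62 FPKM after CTX and 0.682, 0 and 0.678 FPKM in Uninjected muscle (log2 fold change 2.88, standard error 0.52, adjusted p = 0.00585). Both chemokines were highest in replicates 2 and 3 and lowest in replicate 4, the library with the highest Lyz2. The calls of Ccl8 and Cxcl9 were lost with Student's t-test on FPKM. It called 0 higher and 0 lower in the list of T, NK and B cell genes and 2 higher and 0 lower in the list of chemokines and cytokines.

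Genes of the extracellular matrix were higher and uneven among the injured muscles. Of 26 tested collagen genes (32 listed), 17 were higher and 0 lower, with a median of 2.36, but 8 were higher without Uninjected replicate 3. Of 45 tested genes of matrix glycoproteins and proteoglycans (47 listed), 23 were higher and 0 lower (median 1.604), with 36 higher without Differentiation Stage replicate 1 and 11 without Uninjected replicate 2 or 3. Col3a1, a fibrillar collagen of young matrix, was at 46.1, 422, 233 and 387 FPKM in the Differentiation Stage and 16.3, 12.2 and 2.76 FPKM in the Uninjected group (log2 fold change 4.53, standard error 0.83, adjusted p = 0.00633). Col1a1, the main chain of type I collagen, was at 46.3, 1044, 336 and 914 FPKM after CTX and 38.2, 16.6 and 4.51 FPKM in Uninjected muscle (log2 fold change 4.55, standard error 1.10, adjusted p = 0.0175). Its adjusted p was 0.0513 without Uninjected replicate 2 and 0.0674 without Uninjected replicate 3. In all, 4 of the 18 alternatives lost the call of Col1a1. Replicate 1 exceeded the highest Uninjected library by little for Col1a1, while replicates 2 and 4 were far above both. Cilp (ENSMUSG00000042254), a matrix protein gene on chromosome 9 from 65265180 to 65280605, was steadier, with 69.7, 141, 61.2 and 81.8 FPKM in the Differentiation Stage and 5.90, 1.43 and 1.02 FPKM in the Uninjected group (log2 fold change 4.99, standard error 0.50, adjusted p = 0.000864). Sparc, a collagen-binding protein gene, was at 172, 563, 300.1 and 517 FPKM after CTX and 92.0, 57.2 and 41.6 FPKM in Uninjected muscle (log2 fold change 2.53, standard error 0.45, adjusted p = 0.00546). The calls of Col3a1, Col1a1, Cilp and Sparc were lost with Student's t-test on FPKM. That test called 4 higher and 0 lower in the list of collagens and 1 higher and 0 lower in the list of matrix glycoproteins and proteoglycans.

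Of 22 tested genes of collagen folding and crosslinking (23 listed), 12 were higher and 0 lower (median 1.99), with 7 higher without Differentiation Stage replicate 2, 4 without Uninjected replicate 2 and 3 without Uninjected replicate 3. Serpinh1, the collagen chaperone HSP47, was at 92.1, 204, 149.7 and 318 FPKM in the Differentiation Stage and 32.5, 23.6 and 17.6 FPKM in the Uninjected group (log2 fold change 2.83, standard error 0.41, adjusted p = 0.00256). Crtap, part of the complex that hydroxylates collagen, was at 15.6, 30.7, 20.5 and 38.4 FPKM after CTX and 5.34, 2.28 and 3.46 FPKM in Uninjected muscle (log2 fold change 2.66, standard error 0.35, adjusted p = 0.00202). The inhibitors of metalloproteases did not move as one. Timp1 was at 9.11, 19.4, 16.8 and 31.8 FPKM in the Differentiation Stage and 2.32, 0 and 0 FPKM in the Uninjected group (log2 fold change 4.35, standard error 0.64, adjusted p = 0.00286). Timp3 and Timp4 were lower. Timp3 was at 3.56, 5.55, 4.98 and 3.52 FPKM after CTX and 14.2, 12.9 and 12.4 FPKM in Uninjected muscle (log2 fold change -1.50, standard error 0.19, adjusted p = 0.00188). Timp4 was at 2.97, 0.794, 2.36 and 1.83 FPKM after CTX and 12.5, 8.84 and 15.3 FPKM in Uninjected muscle (log2 fold change -2.41, standard error 0.34, adjusted p = 0.00242). Timp1 lies in the same list as proteases, of which 18 of 32 tested (36 listed) were higher and 4 lower, with 7 to 11 higher on leaving out replicate 2 or 4 of the Differentiation Stage or replicate 2 or 3 of the Uninjected group. The calls of Serpinh1, Crtap and Timp1 were lost with Student's t-test on FPKM. It called 0 higher and 0 lower in the list of collagen folding and crosslinking and 3 higher and 3 lower in the list of proteases and their inhibitors.

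The summed levels by library show which lists varied among the injured muscles. The macrophage list summed to 244, 2006, 883 and 2653 FPKM in the Differentiation Stage and 73.7, 74.3 and 50.6 FPKM in the Uninjected group. The collagens summed to 384, 2643, 1157 and 2358 FPKM after CTX and 202, 115 and 71.3 FPKM in Uninjected muscle. In both, replicate 1 was the lowest of the injured muscles and replicates 2 and 4 the highest. The fusion and new myocyte list summed to 5272, 4764, 5229 and 5372 FPKM in the Differentiation Stage and 2279, 2069 and 1985 FPKM in the Uninjected group. The IGF and imprinted list summed to 2341, 2511, 2355 and 2397 FPKM after CTX and 452, 444 and 327 FPKM in Uninjected muscle. These 2 sums were nearly level over the 4 injured muscles and rest mostly on their most abundant genes, such as Actc1 and H19. Adult sarcomere genes summed to 98764, 54681, 76707 and 49688 FPKM in the Differentiation Stage and 74146, 113045 and 91192 FPKM in the Uninjected group, lowest in replicates 2 and 4. The share of attached cells in each library was not measured, and its part in these differences was not tested.

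**Figure D4:**
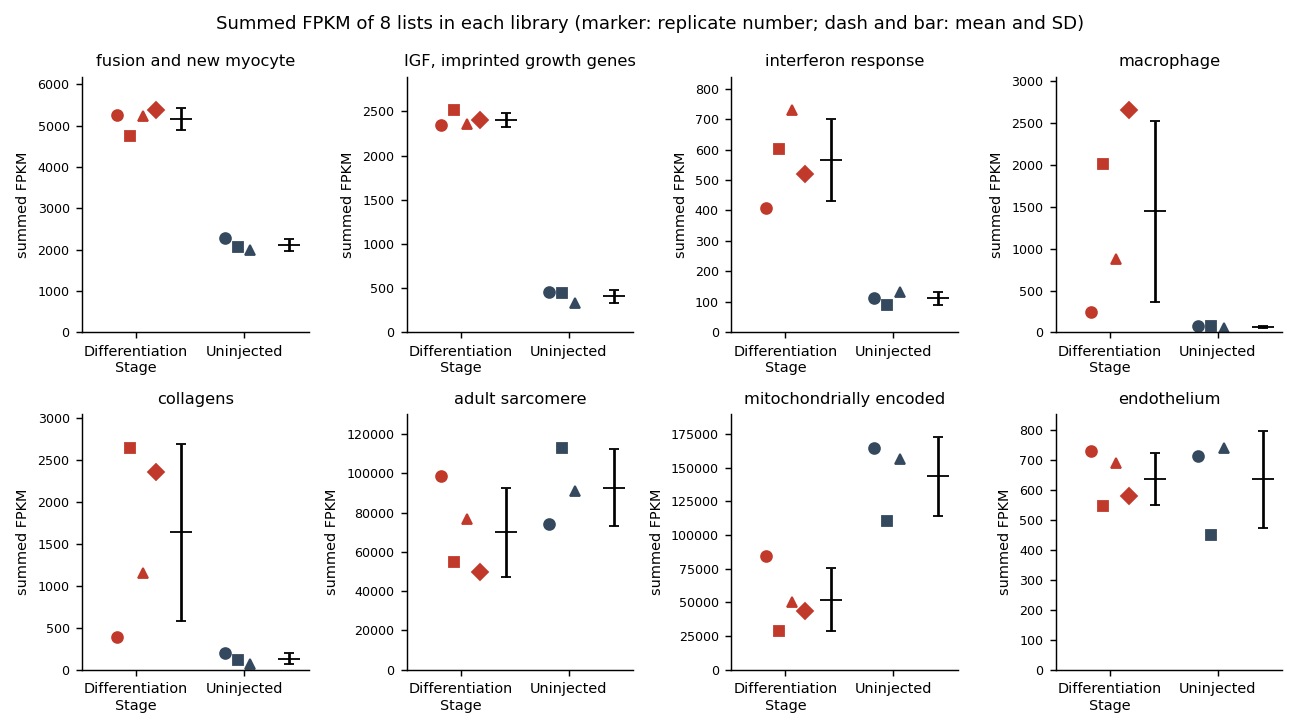
Summed FPKM of 8 gene lists by library, each panel with its own linear axis from 0, for the 4 Differentiation Stage libraries (red, left) and the 3 Uninjected libraries (dark blue, right), with the marker shape for the replicate number and a dash and bar for the mean and SD of each group. Among the Differentiation Stage libraries the macrophage sums run from 244 to 2653 FPKM and the collagen sums from 384 to 2643 FPKM, while the imprinted sums stay between 2341 and 2511 FPKM.

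Vessel and stromal markers changed in part. Of 29 tested endothelial genes (32 listed), 11 were higher and 2 lower (median 0.38), with 7 higher without Uninjected replicate 2, 4 lower without Differentiation Stage replicate 1 and 17 higher with the same total. Aplnr, the apelin receptor of sprouting vessels, was at 31.2, 24.0, 33.1 and 18.8 FPKM in the Differentiation Stage and 3.22, 1.09 and 1.17 FPKM in the Uninjected group (log2 fold change 3.63, standard error 0.33, adjusted p = 0.000695). Its ligand gene Apln was at 3.42, 8.45, 4.31 and 7.65 FPKM after CTX and 0.522, 0.482 and 0 FPKM in Uninjected muscle (log2 fold change 2.94, standard error 0.37, adjusted p = 0.00176). Plvap, the protein of endothelial fenestrae, was at 34.3, 38.3, 31.0 and 45.1 FPKM after CTX and 10.8, 12.2 and 10.3 FPKM in Uninjected muscle (log2 fold change 1.69, standard error 0.18, adjusted p = 0.00101). All 3 of these genes lay higher in each injured muscle than in each Uninjected muscle. Flt1, a decoy receptor for the vessel growth factor VEGF, was lower, at 4.09, 2.56, 4.73 and 2.58 FPKM after CTX and 12.8, 6.93 and 10.5 FPKM in Uninjected muscle (log2 fold change -1.40, standard error 0.27, adjusted p = 0.00761). The general endothelial marker Pecam1 was at 32.4, 26.4, 27.1 and 21.7 FPKM after CTX and 18.3, 14.9 and 20.6 FPKM in Uninjected muscle and missed the threshold (log2 fold change 0.57, adjusted p = 0.0558, and 0.0439 without Differentiation Stage replicate 4 and 0.00342 with the same total). Its groups did not overlap. Of 23 tested genes of fibro-adipogenic progenitors, the matrix-producing stromal cells of muscle (24 listed), 11 were higher and 1 lower (median 1.31), with 6 higher without Uninjected replicate 2 and 7 without Uninjected replicate 3. Lum, the proteoglycan lumican, was at 9.63, 59.9, 35.5 and 45.6 FPKM in the Differentiation Stage and 4.37, 2.48 and 2.19 FPKM in the Uninjected group (log2 fold change 3.23, standard error 0.56, adjusted p = 0.0052). Pdgfra, the receptor that defines these cells, was at 0.336, 3.93, 2.26 and 3.48 FPKM after CTX and 1.149, 0.555 and 0.586 FPKM in Uninjected muscle with overlapping groups (adjusted p = 0.187, and 0.00359 without Differentiation Stage replicate 1). Of 5 tested red blood cell genes (11 listed), 4 were lower and 0 higher, with 1 or 2 lower without any 1 library other than Differentiation Stage replicate 1 and 1 lower with the same total. Hbb-bs, a globin of these cells, was at 12.3, 8.92, 9.74 and 8.65 FPKM after CTX and 46.6, 33.6 and 22.9 FPKM in Uninjected muscle (log2 fold change -1.70, standard error 0.25, adjusted p = 0.00275). The calls of Apln, Flt1, Lum and Hbb-bs were lost with Student's t-test on FPKM. That test called 6 higher and 0 lower in the list of endothelial genes, 3 higher and 0 lower in the list of fibro-adipogenic progenitor genes and 0 higher and 0 lower in the list of red blood cell genes.

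Tceal7 was among the 25 largest rises, and Ces1d and Ppp1r1a were among the 25 largest falls. Tceal7 (ENSMUSG00000079428), on chromosome X from 136214779 to 136226100, encodes a small nuclear protein and was at 208, 169.9, 234 and 159 FPKM in the Differentiation Stage and 4.73, 11.2 and 6.09 FPKM in the Uninjected group (log2 fold change 4.69, standard error 0.29, adjusted p = 0.000185). Ces1d (ENSMUSG00000056973), a lipid-handling carboxylesterase gene on chromosome 8 from 93166068 to 93197838, was at 1.14, 0, 0.441 and 0 FPKM after CTX and 14.9, 15.4 and 14.1 FPKM in Uninjected muscle (log2 fold change -4.28, standard error 0.40, adjusted p = 0.00072). Ces1d was nearly level in the 3 Uninjected muscles and listed at 0 in 2 of the 4 injured ones. Ppp1r1a, an inhibitor of protein phosphatase 1, was at 4.64, 0.175, 1.33 and 0 FPKM in the Differentiation Stage and 16.4, 34.9 and 33.4 FPKM in the Uninjected group (log2 fold change -4.35, standard error 0.74, adjusted p = 0.00482). Car3, carbonic anhydrase 3 of muscle and fat, was lower as well, at 196, 150.0, 169 and 188 FPKM after CTX and 528, 579 and 696 FPKM in Uninjected muscle (log2 fold change -1.77, standard error 0.22, adjusted p = 0.0017). Fdft1, squalene synthase of the cholesterol pathway, was at 6.55, 2.16, 4.35 and 2.93 FPKM after CTX and 24.3, 19.4 and 36.7 FPKM in Uninjected muscle (log2 fold change -2.65, standard error 0.35, adjusted p = 0.00202), although 4 of the 22 tested genes of that pathway (25 listed) were lower and 2 higher, with 2 lower without Uninjected replicate 2. When scaled to the same total, 2 were lower and 6 higher. Student's t-test on FPKM called 0 higher and 4 lower in the list of cholesterol synthesis.

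Stress genes were split. Of 25 tested oxidative stress genes (27 listed), 5 were higher and 5 lower (median -0.66), against 17.0% and 12.5% of all genes tested. The count of lower genes was 2 with the same total and 9 without Differentiation Stage replicate 1. It was 3 on leaving out Differentiation Stage replicate 2, Differentiation Stage replicate 4 or Uninjected replicate 3. Nqo1, a quinone reductase that the antioxidant factor NRF2 induces, was at 0.868, 1.10, 2.02 and 0.535 FPKM in the Differentiation Stage and 11.7, 8.14 and 16.0 FPKM in the Uninjected group (log2 fold change -2.96, standard error 0.33, adjusted p = 0.00109). Gstm1, a glutathione transferase, was at 32.5, 14.7, 21.7 and 17.2 FPKM after CTX and 69.2, 121 and 128 FPKM in Uninjected muscle (log2 fold change -2.29, standard error 0.32, adjusted p = 0.00239). Hmox1, heme oxygenase 1, which macrophages use to break down heme, was higher, at 11.9, 9.07, 11.9 and 19.4 FPKM after CTX and 3.05, 1.73 and 5.69 FPKM in Uninjected muscle (log2 fold change 1.84, standard error 0.36, adjusted p = 0.00803). The groups did not overlap for these 3 genes. Hspb1, a small heat shock protein gene, was at 605, 298, 537 and 575 FPKM in the Differentiation Stage and 148, 169.7 and 153 FPKM in the Uninjected group (log2 fold change 1.63, standard error 0.29, adjusted p = 0.00553), with replicate 2 well below the other injured muscles. In the list of serine, one-carbon and amino acid stress genes, 9 of 21 tested (24 listed) were higher and 3 lower (median 0.39), with 5 higher on leaving out Differentiation Stage replicate 2, Differentiation Stage replicate 4 or Uninjected replicate 3. Chac1 and Atf5 were 2 of the 3 lower genes, with log2 fold changes of -2.08 and -1.23 (adjusted p = 0.00437 and 0.00282). The calls of Hmox1 and Hspb1 were lost with Student's t-test on FPKM. That test called 0 higher and 2 lower in the list of oxidative stress genes and 0 higher and 3 lower in the list of serine, one-carbon and amino acid stress genes.

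**Figure D5:**
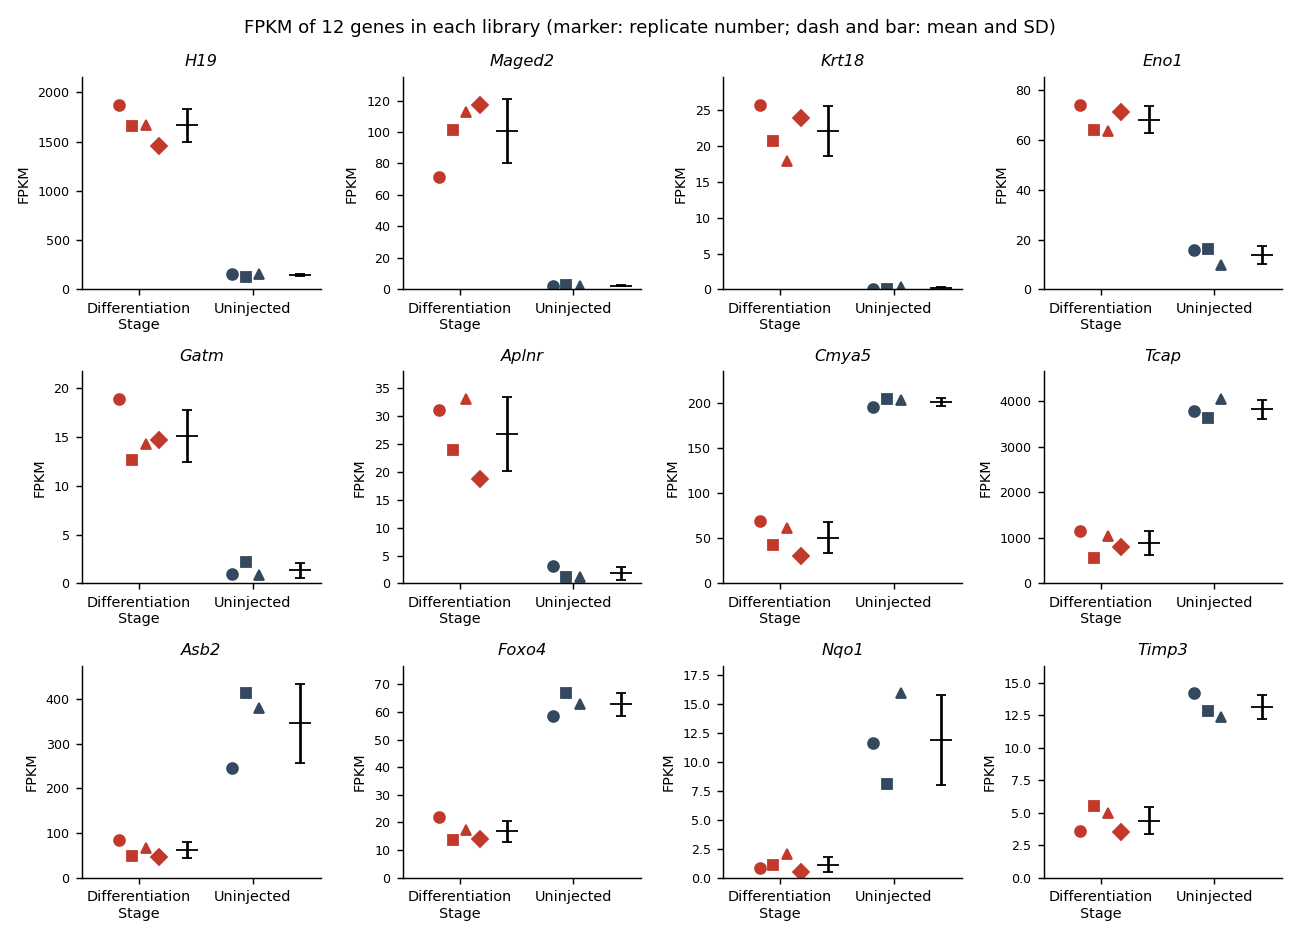
FPKM of 12 named genes, each panel with its own linear axis from 0, in the 4 Differentiation Stage libraries (red, left) and the 3 Uninjected libraries (dark blue, right), with the marker shape for the replicate number and a dash and bar for the mean and SD of each group. The groups lie apart in every panel, higher after CTX in the first 6 (H19, Maged2, Krt18, Eno1, Gatm and Aplnr) and lower in the other 6. The genes were picked from those called, so this separation follows largely from the choice.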

How the data were processed

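Male C57BL/6 tibialis anterior was sampled 7 days after cardiotoxin (4 libraries) or Uninjected (3 libraries), and groups were taken from the sample labels. The authors made poly-A selected, paired-end libraries, aligned them to mm10 and deposited FPKM values for each gene. Which aligner and counter made them is not given in the sources used here. No per-sample columns were left unmapped (0). The titles number the libraries of each group by subject, and the p-values measure the spread between these subjects.

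Genes at 0.5 FPKM or more in at least 3 of the 7 libraries were compared on log2(FPKM + 0.5), which understates changes of low genes, with limma 3.58.1 (R 4.3.3, statmod 1.5.0; trend and robust), two-sided, with Benjamini-Hochberg adjustment over all genes tested. limma was used on all genes at once because the values are FPKM, and Student's t-test on FPKM stands as an alternative. Low values came out as whole fragments within 0.01 for 90.8% to 95.0% of values under 50 fragments, which gave the depth per library, and no count test was run. The test was tried on simulated data. Exact permutation tests over the 35 divisions of the libraries were two-sided. Start-site windows were from RefSeq (GRCm38.p6) and gene positions and lengths from GENCODE M21 (GRCm38), in which 4623 gene identifiers had no entry. 58 gene lists were used. Genes named in the text came from the 25 largest called rises and falls that averaged 10 FPKM or more in the higher group with no overlap between groups, in each list the 4 called genes with the largest change in each direction that averaged 5 FPKM or more there and the gene with the highest mean, the genes of the related-form sets, the defining cell type markers Adgre1, Cd68, Csf1r, Ptprc, Pdgfra, Pecam1 and Hbb-bs, of which Cd68, Csf1r and Ptprc were added after their values were seen, and Myod1, Myog, Myf5, Myf6, Des, Mki67, Pcna, Myh3 and Ttn. Some genes within this rule are not reported here. The genes, lists and tests were chosen with earlier results of these data known. The 18 alternatives tried were other scalings, pseudocounts and filters, another test, a replicate block and leaving out each library. Python 3.11.15, numpy 2.4.6, pandas 2.3.3, scipy 1.17.1 and matplotlib 3.10.9 were used.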

Additional observations from a re-analysis of the deposited data

Results flagged for a closer look

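Among 197 values tried, of genes and of list sums, 7 had 1 Differentiation Stage library far from the other 3, where chance flags about 5% of groups. Replicate 1 was apart in 4 of them. Dlk1, a Notch-related imprinted gene, was at 1.79 FPKM in replicate 1 and at 24.2 to 33.3 FPKM in the others. Smox, spermine oxidase, was at 34.1 FPKM in replicate 1 and at 10.6 to 11.6 FPKM in the others. Gsn, the actin-severing protein gelsolin, was at 33.1 FPKM in replicate 1 and at 59.8 to 62.5 FPKM in the others. It was lower after CTX than in Uninjected muscle, where it was at 162, 132 and 92.2 FPKM. In all, 6 of the 18 alternatives lost this call. Among them were leaving out Uninjected replicate 1 or 2 (adjusted p = 0.0544 and 0.0547), the same total in every library (adjusted p = 0.188) and Student's t-test on FPKM. The genes of fibro-adipogenic progenitors summed to 237 FPKM in replicate 1 and to 539 to 632 FPKM in the others.

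The other 3 came from other libraries. Myod1, the myoblast determination gene, was at 27.1 FPKM in replicate 3 and at 37.7 to 39.1 FPKM in the others. Nr1d2, the clock repressor REV-ERB beta, was at 6.83 FPKM in replicate 4 and at 10.1 to 10.6 FPKM in the others. Hspb1 was at 298 FPKM in replicate 2 and at 537 to 605 FPKM in the others.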

How the results depend on the processing

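Of 139 of the genes named, 130 were called, and over the 18 alternatives 0 of 2497 values changed sign as a call while 114 lost and 11 gained a call. Most of these genes were chosen for large called changes and every alternative reused the same libraries, so a change of sign could hardly arise. Student's t-test on FPKM accounts for 70 of the 114 losses, and the replicate block for 9. Counts of called genes moved more. With the same total in every library 3912 genes were higher and 570 lower, and with that total computed without mitochondrial genes 935 were lower. Student's t-test called 1407 genes (552 higher, 855 lower). Leaving out 1 library gave 2242 to 4655 called genes, 1309 to 2689 higher and 916 to 1966 lower, with fewest called in all without Uninjected replicate 3 and most without Differentiation Stage replicate 1. Without Differentiation Stage replicate 2 the counts were 1426 higher and 1059 lower, and without Uninjected replicate 2 they were 1332 and 916. The causes were not tested. With a replicate block over the numbers 1 to 3, in which Differentiation Stage replicate 4 has no partner, 1728 genes were called (1038 higher, 690 lower). Same-numbered libraries correlated at -0.114, -0.0590 and -0.0401 in their deviations from the group means. So few pairs cannot decide whether the numbers pair the samples. The study describes its uninjected controls as a group of mice of their own. The estimated depth of 1471339 fragments in the shallowest library limits genes near 0.5 FPKM.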
